A study of Mus musculus with 22 samples.

Results

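The interleukin-6 family, STAT3 and the C/EBP factors were described here through 10 genes of a myeloid panel. The cells were isolated as granulocytic from mouse mammary tumours. The genes were chosen by name, as members of 1 signalling chain: the ligands Il6, Osm and Lif, the receptor chains Il6ra and Il10ra, the factor Stat3, the C/EBP factors Cebpb and Cebpd, and the induced genes Socs3 and Myc. They are 10 of the 655 endogenous genes measured. Ligands of this family signal through the shared receptor chain gp130, which activates Janus kinases and then STAT3, while interleukin-10 reaches STAT3 through Il10ra. STAT3 enters the nucleus, switches on genes such as Socs3, whose protein shuts off gp130 signalling, and in neutrophil precursors acts beside C/EBP-beta in emergency granulopoiesis. In tumour-bearing mice this chain is known for driving the expansion and the suppressive state of myeloid-derived suppressor cells.

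Granulocytic myeloid-derived suppressor cells (G-MDSCs) were isolated from tumours by magnetic selection of Ly6G-positive cells, and transcripts were counted through fluorescent barcodes without amplification. NT2.5 is a cell line derived from a mammary tumour of a neu-N mouse. Female neu-N mice aged 7 to 8 weeks carried tumours grown from 50000 such cells in the mammary fat pad, and treatment started 3 days later and ran for 3 weeks. The neu-N mouse carries a rat neu (HER2) transgene and is a model of a tumour to which the host is tolerant. The protocol mentions studies with and without an antibody to HER2 and does not say which applies to these samples. Entinostat, a drug that blocks class I histone deacetylases, was given alone (5 mg/kg by mouth daily, 4 samples), with anti-PD-1 (100 µg per mouse, 4 samples), with anti-CTLA-4 (100 µg per mouse, 4 samples), or with both antibodies (the triple combination, 4 samples). The remaining 6 samples came from vehicle mice. The antibodies block checkpoint receptors on T cells. Vehicle mice received 0.5% methylcellulose and isotype antibodies. No group received an antibody without entinostat, so the effect of each antibody was measured only on top of the drug. Nothing in the labels ties the samples to separate animals, so the p-values measure the spread between these samples, which may be technical in part.

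The values are normalized counts as deposited, and 29.3 is a background limit pooled over the negative controls of all samples. Set against the highest negative control of the same sample, Il6 and Lif were above it in 21 of 22 samples. Each of the other genes was above it in 22 of 22. Barcode counts per sample ran from 23296 to 443871, with a median of 179364. The sample with the lowest depth, triple combination sample 2, had 1 barcode count worth 9.78 normalized counts, against 0.400 in the deepest sample. In these cells the neutrophil genes S100a8 and S100a9 were abundant (medians of 5653 and 10419 normalized counts), and Csf3r and Cxcr2 were above the limit in 22 of 22 samples. Ly6g itself, the marker used for selection, had a median of 6.40 and exceeded the limit in 1 of 22 samples. The neutrophil genes Mpo and Mmp8 were also low, with medians of 4.9 and 12.7, and exceeded it in 1 and 2 of 22 samples. Cdh1, an epithelial gene, was measured at 717 to 1310 in every sample. In bulk RNA of this kind, a smaller share of a cell type and less RNA per cell cannot be told apart. The samples lay on 2 cartridges: cartridge 1 held the entinostat samples, those with anti-PD-1, triple combination sample a and 3 vehicle samples, and cartridge 2 held the rest. Within its group, entinostat plus anti-PD-1 sample 4 was the highest in 8 of the 10 genes, entinostat plus anti-CTLA-4 sample a in 9, and entinostat sample 3 and vehicle sample 2 in 6 each. The summed levels of 5 pan-leukocyte genes were also the highest of their groups in the anti-PD-1, anti-CTLA-4 and vehicle samples among these, at 4667, 3065 and 3707 normalized counts.

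Against vehicle, entinostat alone was accompanied by higher transcripts of 6 of the 10 genes: Il6, Il6ra, Il10ra, Stat3, Socs3 and Cebpb. None of the 10 was called lower. The difference in Stat3 turned negative under 4 other scalings. A gene is called where limma gives a Benjamini-Hochberg adjusted p under 0.05 over the 420 genes tested, of which 36.2% were called higher and 40.0% in either direction. The median log2 fold change of the 10 genes was 1.10, beside 0.50 for all genes tested. With anti-PD-1 added, 4 of the 10 were higher than in vehicle (Il6ra, Il10ra, Socs3 and Cebpb), beside 20.5% of all genes called higher and 21.9% in either direction. With anti-CTLA-4 added, alone or with anti-PD-1, 0 of the 10 passed, where 0% of all genes tested did. On the deposited scale, all 10 genes had their highest group mean in entinostat alone, and the share of all genes is not given. Over all genes tested, the median log2 difference from entinostat was -0.14 with anti-PD-1, -0.67 with anti-CTLA-4 and -0.24 with both. Under 4 other scalings, Lif, Stat3 and Myc were lower in entinostat than in vehicle.

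**Figure D1:**
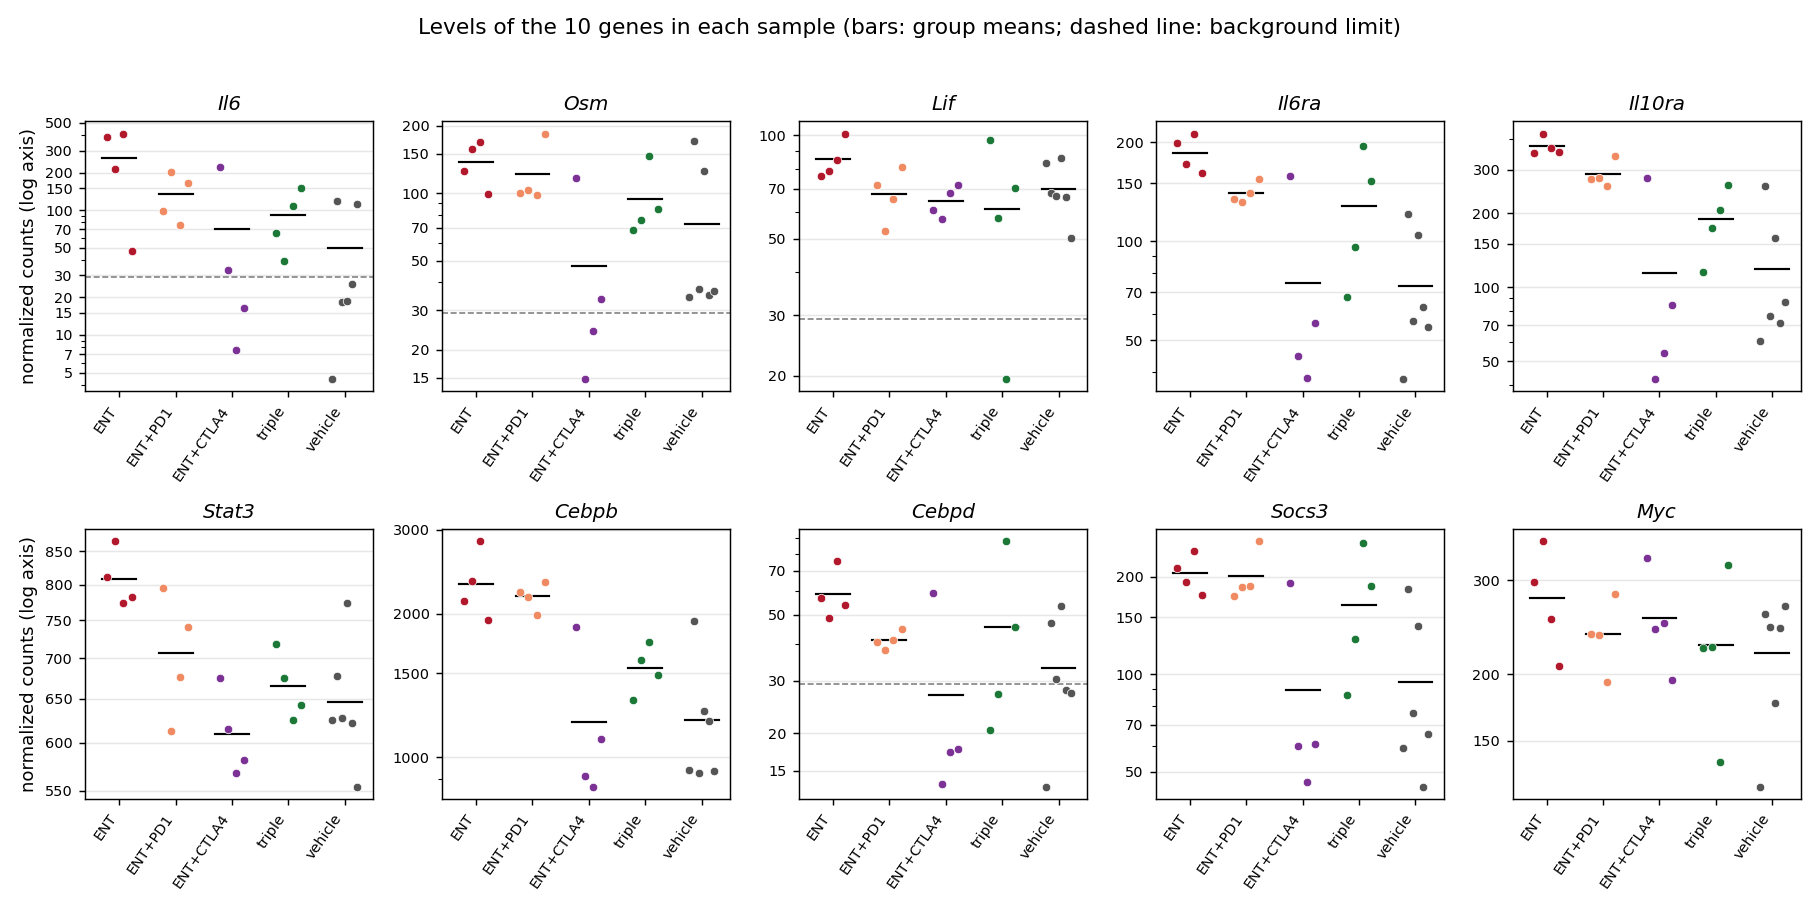
Normalized counts of the 10 genes (log axis) in every sample, by group: entinostat alone (ENT), with anti-PD-1 (ENT+PD1), with anti-CTLA-4 (ENT+CTLA4), the triple combination and vehicle. Points are samples, bars are group means and the dashed line is the background limit of 29.3. The 4 entinostat samples lie above all 6 vehicle samples for Il6ra, Il10ra and Cebpb, and 1 sample with anti-CTLA-4 lies far above the other 3 of its group for Il6, Il6ra, Osm, Il10ra, Socs3, Cebpb and Cebpd.

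Among the ligands, Il6, the founding cytokine of the family, showed the widest span of the 10 genes, 92.6-fold between its lowest and highest sample. It read 384, 214, 410 and 47.2 normalized counts in the 4 entinostat samples, against a vehicle range of 4.43 to 118 with a median of 22.2. In 3 of the 4 entinostat samples it was above every vehicle sample, and the fourth fell inside the vehicle range. With anti-PD-1 the samples read 98.8, 201, 75.8 and 166. With anti-CTLA-4 they read 33.2, 16.6 and 7.54 in samples 1, 3 and b, and 223 in sample a. The triple combination read 108, 151, 65.6 and 38.9. Il6 was thus above the limit in all samples of entinostat alone, of the anti-PD-1 group and of the triple combination, and in 2 of 6 vehicle samples. Its log2 fold change in entinostat against vehicle was 2.74 ± 0.89 (SE), with an adjusted p of 0.0218. The call was lost in 4 of the 10 refits that left out 1 sample (vehicle sample 1, or entinostat sample 1, 2 or 3). Over those 10 refits the limma adjusted p ran from 0.00812 to 0.0782. With anti-PD-1 it was 2.08 ± 0.89 higher than vehicle, adjusted p 0.101.

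The promoter of Il6 is shown because it is the only one of the 6 promoters found that holds a C/EBP motif. Whether a C/EBP factor acts on Il6 in these cells was not tested. These are the 250 bases before the transcription start in RefSeq (GRCm38.p6, chr5:30012864-30013113, plus strand), with the motif in capitals.
Il6: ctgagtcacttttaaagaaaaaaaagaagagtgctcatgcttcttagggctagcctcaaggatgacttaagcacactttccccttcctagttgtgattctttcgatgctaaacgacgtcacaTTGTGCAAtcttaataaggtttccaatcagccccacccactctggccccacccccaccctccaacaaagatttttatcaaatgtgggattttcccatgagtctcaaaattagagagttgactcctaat
The motif TTGCNNAA was searched on both strands and here lies on the strand opposite the gene, 128 bases before the start. It occurs in 9.56% of 32851 mouse promoters of this length. A match describes the letters and not a bound site.

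Of 410 other genes tested, Gem and Selp were the most alike over the 22 samples to Il6 (Pearson r of 0.96 each on log2 values), where the median gene had an r of 0.60. These samples share groups and scaling, so the r is a description. Selp, which encodes P-selectin of endothelium and platelets, rose by a log2 fold change of 3.00 ± 0.95 in entinostat against vehicle (adjusted p 0.0200). The 4 endothelial genes of the panel (Cdh5, Sele, Selp and Ptprb) summed to 162 to 751 normalized counts in entinostat samples and 23.0 to 250 in vehicle samples, and 3 of the 4 passed. Entinostat sample 4, the lowest of its group for Il6, was also the lowest for this sum, 162. Their part in the Il6 result was not tested.

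Osm encodes oncostatin M, a gp130 ligand made by neutrophils and macrophages. Entinostat samples read 126, 158, 169 and 98.9 normalized counts, against a vehicle range of 34.5 to 170 with a median of 36.9. The vehicle samples fell into 4 values between 34.5 and 37.3 and a pair at 125 and 170 (samples 3 and 2), so the groups overlapped. The log2 fold change of 1.22 ± 0.51 did not pass (adjusted p 0.0627), and without vehicle sample 2 it was 1.53 ± 0.47 with an adjusted p of 0.0131. Leaving out vehicle sample 3 also brought it past the threshold, and the adjusted p ran from 0.0131 to 0.147 over 10 refits. Under 4 other scalings the log2 fold change lay between 0.49 and 0.68 and did not pass. It was called in 2 of 15 other settings. With anti-PD-1 the samples read 100.3, 104, 97.8 and 184, and with anti-CTLA-4 samples 1, 3 and b read 14.8, 33.8 and 24.4 beside 117 in sample a. The triple combination read 147, 84.7, 68.7 and 76.1. Osm was among the 5 genes that passed the moderated F test for any difference among the 5 groups (adjusted p 0.0444).

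Lif, leukaemia inhibitory factor, gave no call in limma. It averaged 85.2 ± 11.2 normalized counts in entinostat samples, 67.6 ± 11.9 with anti-PD-1, 64.3 ± 6.69 with anti-CTLA-4, 61.0 ± 32.1 in the triple combination and 70.0 ± 13.0 in vehicle (SD). The spread of the triple combination came from sample 2, where Lif rested on 2 barcode counts. Its log2 fold change of 0.29 ± 0.29 in entinostat against vehicle (adjusted p 0.414) was negative under 4 other scalings. Its r with the other 9 genes lay between -0.21 and 0.47.

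Among the receptors, Il6ra, the ligand-binding chain for interleukin-6, read 198, 172, 213 and 162 normalized counts in entinostat samples, against 38.1 to 121 in vehicle samples with a median of 60.0. All 4 entinostat samples lay above all 6 vehicle samples. The log2 fold change was 1.44 ± 0.36, a 2.71-fold difference with a 95% interval of 1.60 to 4.60 (adjusted p 0.00928). With anti-PD-1 the samples read 135, 131, 140 and 154, again above every vehicle sample, and the log2 fold change was 1.04 ± 0.36 (adjusted p 0.0490). This call was lost in 8 of 10 refits without 1 sample, and held without vehicle sample 2 or 3. With anti-CTLA-4, samples 1, 3 and b read 44.8, 56.5 and 38.3, beside 158 in sample a, and the triple combination read 196, 153, 67.7 and 96.4. The triple combination was higher than vehicle by 0.80 ± 0.36, which did not pass (adjusted p 0.333).

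Il10ra, the chain that binds interleukin-10 and signals through STAT3, had the largest log2 fold change among the genes whose groups did not overlap. Entinostat samples read 349, 420, 369 and 355 normalized counts, against 60.2 to 257 in vehicle samples with a median of 81.5. The lowest entinostat sample was above the highest vehicle sample, and the log2 fold change was 1.85 ± 0.43, or 3.60-fold with a 95% interval of 1.93 to 6.74 (adjusted p 0.00796). With anti-PD-1 the samples read 275, 277, 258 and 342, the lowest only just above vehicle sample 2, and the log2 fold change was 1.47 ± 0.43 (adjusted p 0.0276). With anti-CTLA-4 samples 1, 3 and b read 42.4, 84.7 and 53.9, beside 278 in sample a, and the triple combination read 205, 260, 115 and 174. Of the 10 genes, 3 did not overlap between entinostat and vehicle (Il6ra, Il10ra and Cebpb), beside 15.5% of all genes tested, and the same 3 did not overlap between entinostat plus anti-PD-1 and vehicle, beside 8.81%. Il10, its ligand, was above the limit in 1 of 22 samples.

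Stat3, the factor on which these receptors converge, varied least of the 10 genes, with a 1.56-fold span over all samples. It read 812, 866, 774 and 782 normalized counts in entinostat samples, against 554 to 774 in vehicle samples with a median of 627. The groups met at 774, where entinostat sample 3 and vehicle sample 3 had nearly the same value. The log2 fold change of 0.33 ± 0.11 passed (adjusted p 0.0218), but it was smaller than the median of all genes, 0.50. Scaled to the median of the tested genes it was -0.21, by quantile normalization -0.20, with edgeR and TMM factors -0.16 and with DESeq2 -0.23, none of which passed. The call was also lost without entinostat sample 2 (highest adjusted p of 10 refits, 0.0721). The other groups read 613 to 795 with anti-PD-1, 568 to 675 with anti-CTLA-4 and 626 to 718 in the triple combination. These are transcript levels. The activity of STAT3, which depends on its phosphorylation, was not measured.

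Cebpb, encoding C/EBP-beta, a factor that sustains granulopoiesis under stress, gave the smallest adjusted p of the 10 genes in entinostat against vehicle. It read 2121, 2339, 2836 and 1943 normalized counts in entinostat samples, against 927 to 1930 in vehicle samples with a median of 1067. The lowest entinostat sample, 1943, was just above vehicle sample 2 at 1930, and the other 5 vehicle samples were at 1249 or below. The log2 fold change was 0.99 ± 0.22, a 1.98-fold difference with a 95% interval of 1.45 to 2.71 (adjusted p 0.00769). With anti-PD-1 the samples read 2215, 2162, 1982 and 2333, with a log2 fold change of 0.91 ± 0.22 (adjusted p 0.0207). With anti-CTLA-4, samples 1, 3 and b read 915, 1092 and 869, beside 1879 in sample a. The triple combination was in between at 1740, 1488, 1317 and 1596, and its log2 fold change against vehicle of 0.41 ± 0.22 did not pass (adjusted p 0.34).

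Cebpd, encoding C/EBP-delta, an early-response factor of the same family, was close to the background limit and above it in 14 of 22 samples. It read 56.7, 48.7, 75.3 and 54.0 normalized counts in entinostat samples, against 13.3 to 53.2 in vehicle samples with a median of 29.1. These values rest on 21 to 40 barcode counts in entinostat samples and 15 to 40 in vehicle samples. The log2 fold change of 0.91 ± 0.41 did not pass (adjusted p 0.0840), while within cartridge 1 alone it was 1.08 ± 0.34 with an adjusted p of 0.0388. Without vehicle sample 3 it passed narrowly (adjusted p 0.0499). Under the 4 other scalings it lay between 0.18 and 0.41 and did not pass, and it was called in 4 of 15 other settings. The other groups averaged 41.1 ± 2.78 with anti-PD-1, 27.0 ± 21.5 with anti-CTLA-4, 45.3 ± 30.4 in the triple combination and 33.2 ± 14.5 in vehicle (SD).

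Socs3, the feedback inhibitor, read 213, 193, 241 and 175 normalized counts in entinostat samples, against 45.0 to 183 in vehicle samples with a median of 70.9. Only vehicle sample 2 reached into the entinostat range. The log2 fold change was 1.27 ± 0.40 (adjusted p 0.0200). With anti-PD-1 the samples read 175, 187, 188 and 258, a log2 fold change of 1.24 ± 0.40 (adjusted p 0.0352). The mean was nearly equal with and without anti-PD-1, 202 ± 37.8 and 205 ± 28.1 (SD), and the 95% interval of their log2 difference ran from -0.95 to 0.88. With anti-CTLA-4, samples 1, 3 and b read 60.0, 60.8 and 46.4, beside 192 in sample a, and the triple combination read 254, 188, 86.2 and 128. Without vehicle samples V1 and V2, whose labels differ from the other 4, the entinostat difference in Socs3 was 0.96 ± 0.42 and did not pass (adjusted p 0.0961). Nor did it without entinostat sample 3 (adjusted p 0.0624).

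The promoter of Socs3 is shown because it is the only one of the 6 found that holds a STAT motif, beside that of Cebpb, which holds neither motif (RefSeq, GRCm38.p6; Socs3 at chr11:117969367-117969616, minus strand; Cebpb at chr2:167688665-167688914, plus strand). Each line gives the 250 bases before the transcription start, 5′ to 3′ on the strand of the gene, and capitals mark TTCNNNGAA. The start used is the one in the promoter table, and for Socs3 it lies inside the annotated span of the gene (chr11:117966079-117970336), so the window printed is within that span. The window of Stat3 also overlaps its gene in part.
Socs3: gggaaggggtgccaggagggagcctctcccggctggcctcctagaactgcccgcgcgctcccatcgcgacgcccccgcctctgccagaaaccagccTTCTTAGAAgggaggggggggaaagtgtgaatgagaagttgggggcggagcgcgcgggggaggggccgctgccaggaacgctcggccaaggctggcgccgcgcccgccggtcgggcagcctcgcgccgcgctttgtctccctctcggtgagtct
Cebpb: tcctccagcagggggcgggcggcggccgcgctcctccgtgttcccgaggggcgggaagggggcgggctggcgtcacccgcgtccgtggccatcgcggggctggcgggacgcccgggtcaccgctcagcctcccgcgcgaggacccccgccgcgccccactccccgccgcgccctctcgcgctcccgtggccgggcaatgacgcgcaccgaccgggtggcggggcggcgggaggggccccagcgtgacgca
The match in Socs3 starts 154 bases before the transcription start, and the motif, which reads the same on both strands, is found in 7.02% of the 32851 promoters. The windows of Il6ra, Lif and Stat3 held neither motif, and those of Osm, Il10ra, Cebpd and Myc were not used here. No match says only that these letters are not in this window.

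Myc, a growth factor-induced factor and a classical STAT3 target, showed no difference that passed in limma on the deposited scale. It averaged 278 ± 63.1 normalized counts in entinostat samples, 238 ± 36.2 with anti-PD-1, 255 ± 56.3 with anti-CTLA-4, 227 ± 74.9 in the triple combination and 219 ± 57.2 in vehicle (SD). Its log2 fold change of 0.36 ± 0.24 in entinostat against vehicle (adjusted p 0.231) was negative under 4 other scalings, as for Lif and Stat3. With anti-CTLA-4 added, Myc differed from entinostat alone by -0.13 ± 0.27 (adjusted p 0.690), a difference that turned positive under the same 4 scalings and passed with DESeq2 (0.57, adjusted p 0.0262). Against the anti-PD-1 group it was at 0.09 ± 0.27 (adjusted p 0.810), and it passed with edgeR and TMM factors (0.61, adjusted p 0.0377) and with DESeq2 (0.59, adjusted p 0.0240).

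**Figure D2:**
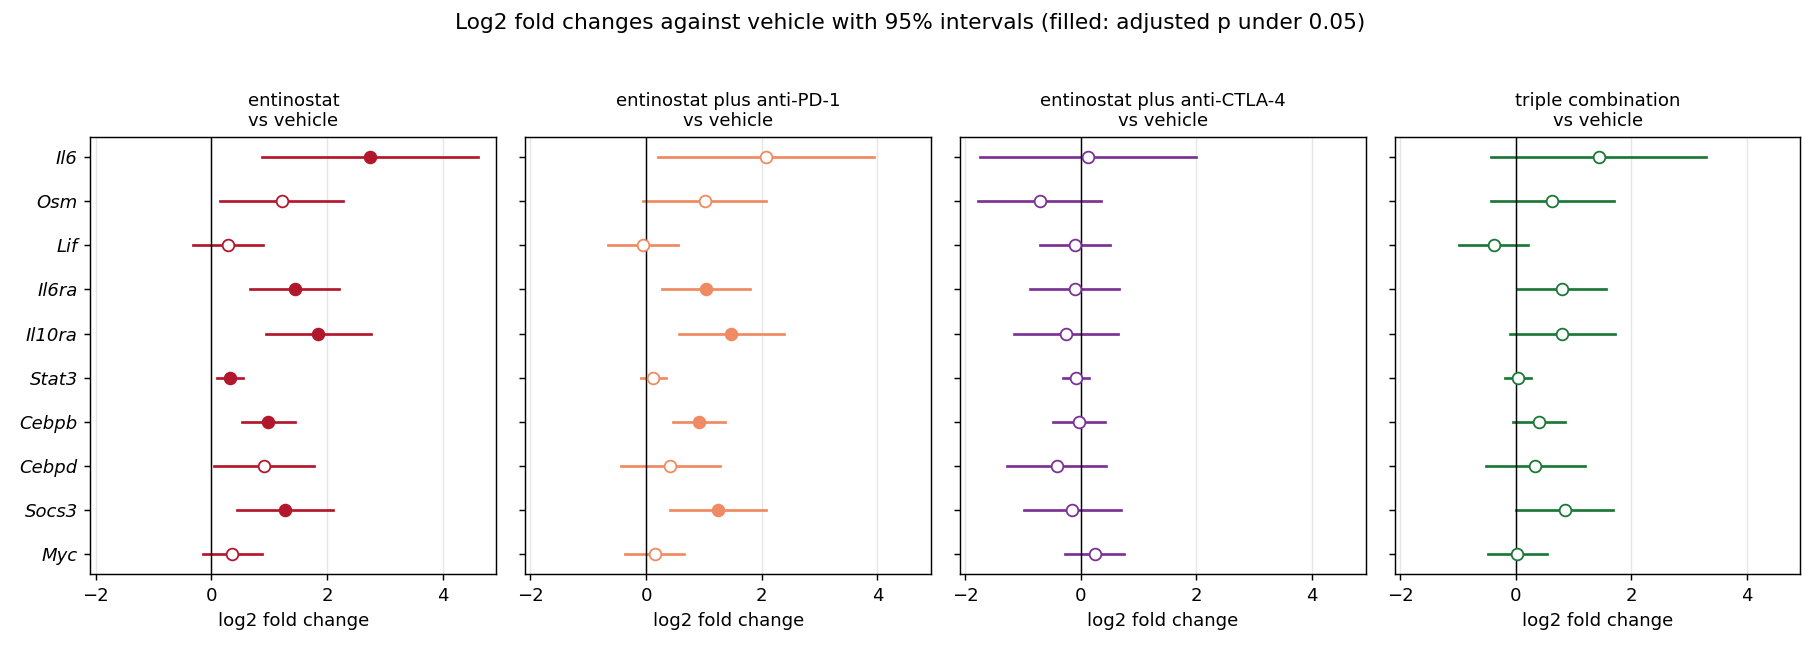
Log2 fold changes of the 10 genes against vehicle (x axis) with 95% intervals, 1 panel per treated group; filled points have an adjusted p under 0.05. Filled points number 6 for entinostat, 4 for entinostat plus anti-PD-1, and 0 for the other panels. Stat3, filled in the entinostat panel, turns negative under 4 other scalings, as do Lif and Myc.

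The order of the group means was the same for 5 genes (Osm, Il10ra, Stat3, Socs3 and Cebpb): entinostat alone first, then the anti-PD-1 group, the triple combination and vehicle, with the anti-CTLA-4 group last. Il6 and Il6ra differed only in that vehicle came last. These are means of normalized counts. On the log2 scale of the tests, Il6ra was lower with anti-CTLA-4 (5.99) than in vehicle (6.10), so its order was that of the 5 genes. Neighbours in the order did not separate. Of 40 neighbouring pairs over the 10 genes, 0 passed in limma, with a lowest adjusted p of 0.170. Between entinostat and the anti-PD-1 group, and between the triple combination and every other group, 0% of all genes passed. The same held between the anti-CTLA-4 group and vehicle. By the F test, 5 of the 10 genes differed among the groups (Il6ra, Osm, Il10ra, Socs3 and Cebpb), beside 33.1% of all genes tested. With the cartridge as a term in the fit, that count was 0, and it was 8 when sample a of the anti-CTLA-4 group was left out.

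Within cartridge 1, where the 4 entinostat samples meet 3 vehicle samples, 6 of the 10 genes again passed against vehicle, with Cebpd in and Stat3 out. There the log2 fold changes were 3.12 ± 1.01 for Il6, 1.51 ± 0.31 for Il6ra, 1.80 ± 0.40 for Il10ra, 1.11 ± 0.33 for Socs3 and 0.94 ± 0.25 for Cebpb. Il6ra, Il10ra and Cebpb passed in all 15 other settings of the analysis and in all 10 refits without 1 sample. Il6 passed in all 15 settings. For entinostat plus anti-PD-1 the values within cartridge 1 were of like size (1.43 ± 0.40 for Il10ra and 0.87 ± 0.25 for Cebpb), but 0 of the 10 genes passed there, with the cartridge as a term, or without vehicle samples V1 and V2. That comparison also lost calls when single samples were left out: Il10ra in 7, Socs3 in 8 and Cebpb in 6 of 10 refits. Its count was 6 without vehicle sample 2, 4 without vehicle sample 3, 2 without entinostat plus anti-PD-1 sample 3, 1 without vehicle sample V1, and 0 in each of the other 6 refits. For entinostat alone the count was 8 without vehicle sample 3 and 4 without entinostat sample 2 or 3.

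**Figure D3:**
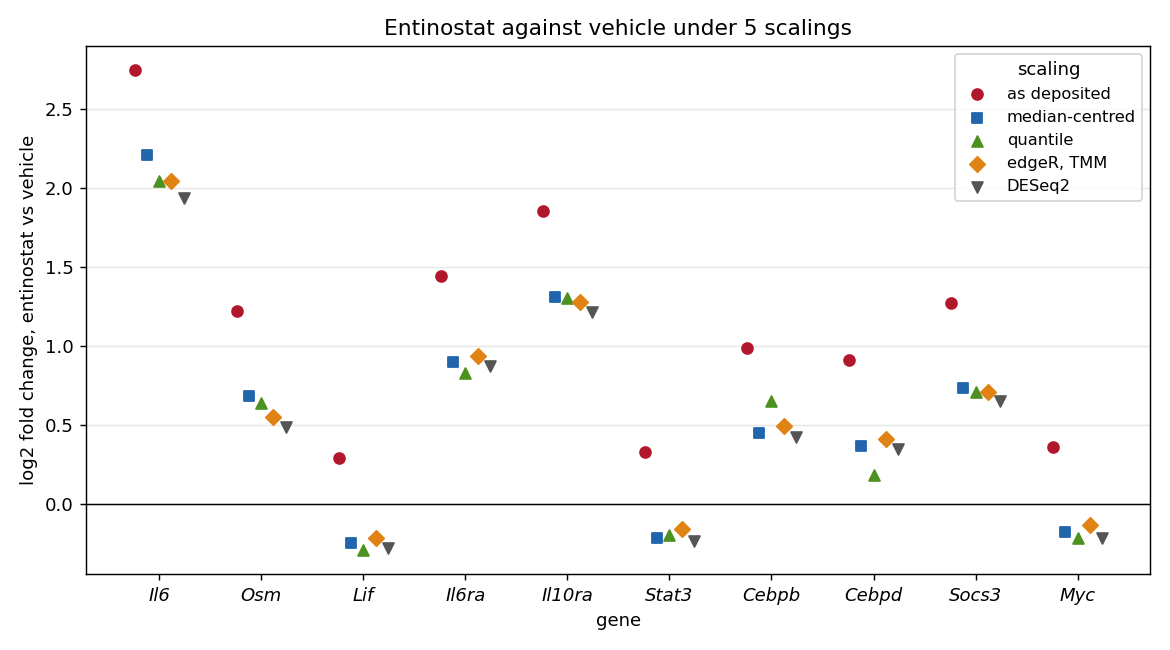
Log2 fold change in entinostat against vehicle (y axis) for the 10 genes under 5 scalings: as deposited, centred on the median of the tested genes, quantile normalization, edgeR with TMM factors and DESeq2. The 4 other scalings lie below the deposited one for every gene, and Lif, Stat3 and Myc change sign.

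Over all genes tested, the median was 0.50 as deposited and lay between -0.13 and 0.01 under the other scalings. Centred on the median, Il6 stood at 2.21, Il6ra at 0.90, Il10ra at 1.31, Socs3 at 0.73 and Cebpb at 0.45, and each of these passed. Socs3 did not pass with edgeR and TMM factors (0.71, adjusted p 0.0521) or with DESeq2 (0.65, adjusted p 0.0530). All genes called in entinostat against vehicle split into 152 higher and 16 lower as deposited, and into 95 higher and 81 lower after centring. Il6, Il6ra, Il10ra and Cebpb were called higher with entinostat under all 4 other scalings, Socs3 under 2 of them and Stat3 under 0.

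With anti-CTLA-4 added to entinostat, the genes were lower than with entinostat alone. Of the 10, 8 fell (Il6, Il6ra, Osm, Il10ra, Stat3, Socs3, Cebpb and Cebpd), beside 42.6% of all genes called lower and 48.3% in either direction. The log2 differences were -2.10 ± 0.47 for Il10ra (adjusted p 0.00320), -1.02 ± 0.24 for Cebpb (0.00352), -1.55 ± 0.40 for Il6ra (0.00555), -1.93 ± 0.56 for Osm (0.0107), -0.41 ± 0.12 for Stat3 (0.0101), -1.42 ± 0.44 for Socs3 (0.0142), -1.33 ± 0.45 for Cebpd (0.0229) and -2.62 ± 0.98 for Il6 (0.0365). The median of the 10 genes was -1.37, beside -0.67 for all genes tested. The fall of Stat3 turned to a positive difference under the 4 other scalings, 0.26 to 0.31. Groups did not overlap for 5 genes (Il6ra, Lif, Il10ra, Stat3 and Cebpb), beside 22.6% of all genes lower without overlap. All entinostat samples were on cartridge 1 and all samples with anti-CTLA-4 on cartridge 2, so there is no within-cartridge value. The fit with the cartridge as a term, linked through the vehicle and triple combination samples, kept 4 of the 8 (Il6ra, Il10ra, Cebpb and Cebpd). Without sample a 8 genes passed, and without sample 1 or b 5 did. Il6 was called in 5 of 13 other settings and Cebpd in 8, where Il6ra and Il10ra were called in 13. Over 8 refits without 1 sample, the call was lost in 6 for Il6 and in 4 for Cebpd, and in 0 for Il6ra and Il10ra. The values of single genes in this comparison under other settings were added after the data were seen.

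The anti-CTLA-4 group was lower than the anti-PD-1 group in 5 of the 10 genes (Il6ra, Osm, Il10ra, Socs3 and Cebpb), beside 29.5% of all genes lower and 31.0% in either direction. Cebpb was lower by a log2 difference of -0.94 ± 0.24 (adjusted p 0.00849) and Il10ra by -1.73 ± 0.47 (adjusted p 0.0121). Cebpb was the only one whose groups did not overlap, beside 13.3% of all genes lower without overlap. With the cartridge as a term, and with only these groups in the fit, 0 of the 10 passed. Without sample a of the anti-CTLA-4 group 7 passed, without sample 1 or b 1 did, and without sample 3, or sample 4 of the anti-PD-1 group, 2 did. Against vehicle, entinostat plus anti-CTLA-4 gave 0 calls in limma, 0 at an unadjusted p under 0.05, and 0 with edgeR and DESeq2. The 95% interval of the fold against vehicle was 0.72 to 1.34 for Cebpb and 0.55 to 1.57 for Il6ra. Without sample a, every one of Il6, Il6ra, Osm, Il10ra, Socs3, Cebpb and Cebpd had a log2 fold change below 0 against vehicle, from -0.27 for Cebpb to -1.28 for Osm, and none passed.

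The triple combination lay between entinostat and vehicle for Il6, Il6ra, Osm, Il10ra, Stat3, Socs3, Cebpb, Cebpd and Myc. Against vehicle 0 of the 10 genes passed in limma, beside 0% of all genes, and edgeR and DESeq2 also gave 0. In limma 2 had an unadjusted p under 0.05, beside 59 of all 420. Against entinostat alone 0 passed, beside 0% of all genes. There 4 had an unadjusted p under 0.05 (Lif, Il10ra, Stat3 and Cebpb), beside 53 of all 420. Lif rested on 2 barcode counts in triple combination sample 2, below that sample's highest negative control of 7. For Il10ra the difference from entinostat was -1.04 ± 0.47 (adjusted p 0.366) and for Cebpb -0.58 ± 0.24 (adjusted p 0.340). Il10ra, Stat3 and Cebpb did not overlap between the triple combination and entinostat, beside 18.6% of all genes lower without overlap, and the difference in Stat3 turned to 0.027 with median centring and 0.058 with quantile normalization. Between the triple combination and the anti-PD-1 group Cebpb alone of the 10 did not overlap, beside 13.3%. Against the anti-CTLA-4 group 0 passed, beside 0% of all genes, and 4 had an unadjusted p under 0.05, beside 115 of all 420. The largest difference was in Osm, 1.34 ± 0.56 (adjusted p 0.170). The interaction of the antibodies under entinostat asks whether anti-PD-1 acts differently when anti-CTLA-4 is present. It passed in 0 of the 10 genes in limma, edgeR and DESeq2, beside 0% of all genes in limma. In limma 2 had an unadjusted p under 0.05, beside 81 of all 420. Adding anti-PD-1 to entinostat gave 0 calls in limma, edgeR and DESeq2, beside 0% of all genes in limma. It gave 0 at an unadjusted p under 0.05 in limma, beside 7 of all 420. Il6ra, Il10ra and Cebpd were lower without overlap, beside 3.57% of all genes. Against the anti-PD-1 group, the triple combination gave 0 calls in limma, edgeR and DESeq2, beside 0% of all genes in limma. In limma 1 had an unadjusted p under 0.05, Cebpb (-0.51 ± 0.24), beside 33 of all 420. All of these comparisons share samples, so they are not independent. Without sample a of the anti-CTLA-4 group, 6 of the 10 genes passed for the triple combination against that group and 6 for the interaction. The shares of all genes in refits without sample a are not given.

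Of the genes around this chain, only some are on the panel. The list of other gp130 and interleukin-10 family ligands had 2 tested genes, Il27 and Csf3, and neither passed (log2 fold changes of 0.85 ± 0.50 and 0.41 ± 0.29 in entinostat against vehicle). Of related receptors 1 was tested: Csf3r, the receptor for granulocyte colony-stimulating factor, rose by 1.72 ± 0.37 with entinostat (adjusted p 0.00769) and by 1.56 ± 0.37 with anti-PD-1 added (adjusted p 0.0207). Of the Janus kinases 1 was tested. Jak3, which serves common gamma-chain receptors, rose by 0.92 ± 0.17 (adjusted p 0.00305) and by 0.57 ± 0.17 (adjusted p 0.0276). Under the other 4 scalings Csf3r passed in each in both comparisons, and Jak3 passed only with edgeR and TMM factors in entinostat against vehicle (0.43, adjusted p 0.0434).

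Of other STAT factors, Stat6 rose by 0.66 ± 0.21 (adjusted p 0.0194) and Stat5b by 0.50 ± 0.19 (adjusted p 0.0415) with entinostat, and neither passed with anti-PD-1 added. Neither passed under the 4 other scalings, where Stat6 lay between 0.10 and 0.17 and Stat5b between -0.08 and 0.02. Stat5a was at 0.04 ± 0.22 with entinostat. The other suppressors of cytokine signalling, Socs1 and Socs2, did not pass (0.57 ± 0.29 and -0.15 ± 0.17), and neither did Cebpa (0.34 ± 0.44), the C/EBP factor of steady-state granulopoiesis, which was negative under the 4 other scalings. Socs2 was called lower with edgeR and TMM factors (-0.69, adjusted p 0.0382) and with DESeq2 (-0.76, adjusted p 0.0201). Of 9 STAT3 target genes tested, 8 were higher with entinostat and 6 with anti-PD-1 added, beside the shares of all genes given above. Under the 4 other scalings 3 to 5 were higher with entinostat and 3 to 5 with anti-PD-1 added. Among them S100a9 and S100a8, subunits of calprotectin, rose by 1.85 ± 0.44 and 1.83 ± 0.46, Cdkn1a, a cell cycle inhibitor, by 0.88 ± 0.23, and Vegfa, a vessel growth factor, by 0.45 ± 0.17. S100a8 and S100a9 passed under all 4 other scalings and Cdkn1a under 2, while Vegfa, which lay below the median of all genes, turned negative under all 4 (-0.15 to -0.02). Hif1a (0.50 ± 0.15, adjusted p 0.0188) was also below that median and turned negative under 3. S100a8, S100a9, Mmp9 and Csf3r are neutrophil markers as well. Birc5 did not pass (-0.25 ± 0.21) on the deposited scale and was lower with DESeq2 (-0.78, adjusted p 0.0428). These scalings of the pathway and marker genes were added after the data were seen.

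Among themselves, the 8 genes other than Lif and Myc moved together over the 22 samples, with a median r of 0.83 over 28 pairs and a range of 0.47 to 0.96. Il6ra was most like Syk (r of 0.98) and Csf3r (0.97), Il10ra like Hdc (0.99) and Syk (0.99), and Cebpb like Csf3r (0.98) and Cxcr2 (0.97). Osm was most like Sirpa and Itgb2 (0.97 and 0.96), Socs3 like Tlr2 and Plaur (0.97 and 0.96), and Cebpd like Csf2ra and Cd86 (0.94 and 0.92). Most of these are genes of mature myeloid cells. For Stat3 the most alike were Nfil3 and Skil (0.87 and 0.85), for Lif Bcl2 and Ctnnb1 (0.68 and 0.66), and for Myc Tep1 and Id1 (0.64 for each). The samples share treatment groups, scaling and cartridges, and these values carry no test.

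**Figure D4:**
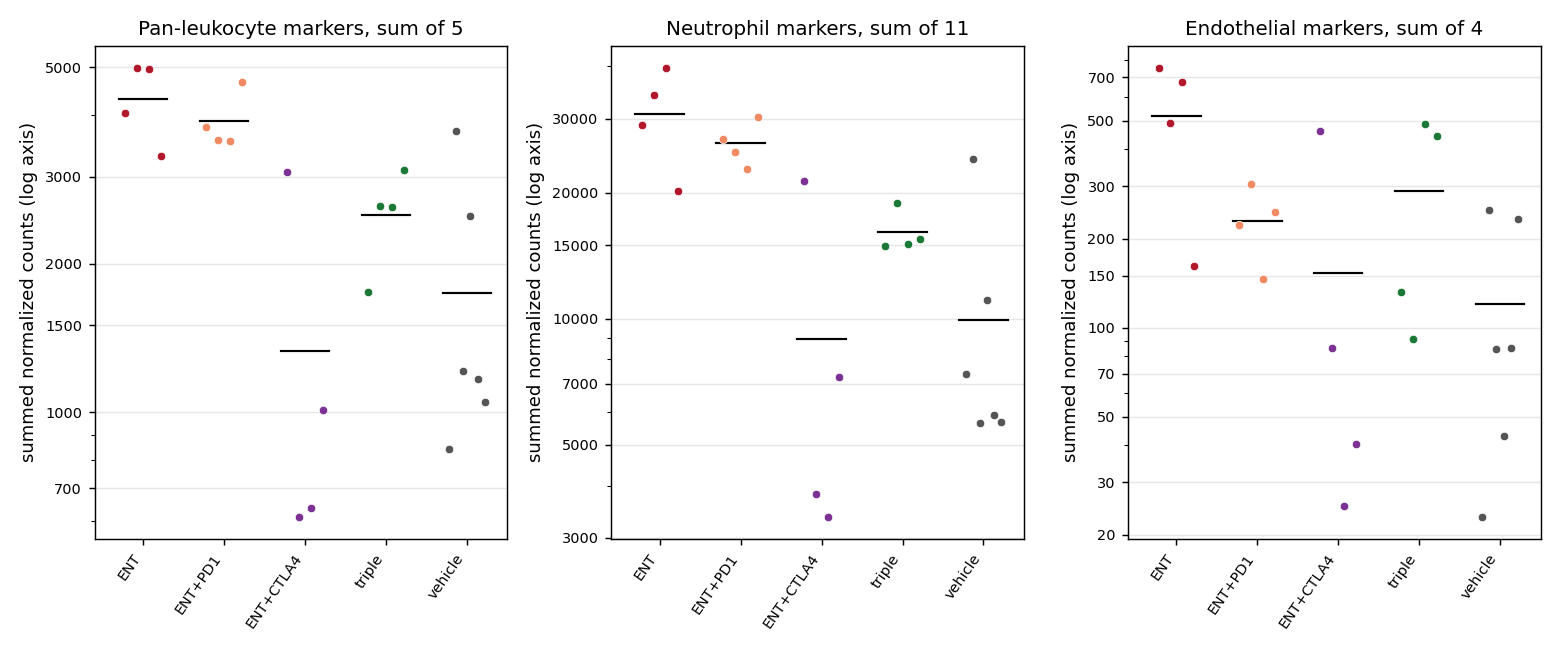
Summed normalized counts (log axis) of 5 pan-leukocyte, 11 neutrophil and 4 endothelial marker genes in every sample, by group, with bars at group means. The pan-leukocyte sum is 3310 to 4976 in entinostat samples and 841 to 3707 in vehicle samples, and 1 sample with anti-CTLA-4 stands above the other 3 in all panels.

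The leukocyte markers moved in the same samples as these genes. The 5 pan-leukocyte genes on the panel (Ptprc, Laptm5, Itgb2, Tyrobp and Vav1) summed to 3310 to 4976 normalized counts in entinostat samples, 3539 to 4667 with anti-PD-1, 614 to 3065 with anti-CTLA-4, 1748 to 3090 in the triple combination and 841 to 3707 in vehicle. In entinostat against vehicle 5 of 5 passed, with a median log2 fold change of 1.49, and Ptprc, which encodes CD45, rose by 1.52 ± 0.36 (adjusted p 0.00796). Of the 7 neutrophil markers tested, 7 passed, with a median of 1.72, and their summed level with the 4 untested ones ran from 20216 to 39597 in entinostat samples and from 5639 to 24065 in vehicle samples. Of the 7 monocyte and macrophage genes tested 0 passed, and their sums overlapped (983 to 3388 in entinostat samples and 524 to 3283 in vehicle samples). The 4 fibroblast and matrix genes summed to 540 to 978 in entinostat samples and 417 to 699 in vehicle samples, and of 3 tested 1 was higher and 1 lower, with 0 higher and 1 lower under each of the 4 other scalings. The 1 dendritic cell gene tested was higher. The epithelial gene Cdh1 fell by 0.41 on the log2 scale (adjusted p 0.0418), and Ms4a1, the B cell gene of the panel, was at 9.28 normalized counts or below in entinostat samples and 8.58 or below in vehicle samples. The part of cell composition in the results for the 10 genes was not tested.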

How the data were processed

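Transcripts of 655 endogenous genes, 20 housekeeping genes and 14 control probes were counted with NanoString barcodes. Per the labels, the deposited values are a signal, barcode counts normalized by the authors. Which software normalized them is not given in the sources used here. Limma appears, with no version, among the tools per the submitters' processing notes. In each sample the low values were whole multiples of what 1 barcode count is worth (100% of values up to 200 counts, within 0.1 count), so counts were recovered for edgeR and DESeq2. All columns with samples were used (0 left out). A pair of column names occurs more than once, and those 4 columns are called a and b.

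A gene was kept where at least 1 group lay above 29.3, which is 2 SD over the negative control mean, giving 420 genes. Values were tested as log2(value + 1), which understates changes of low genes, with limma 3.58.1 in 1 fit over 5 groups (R 4.3.3). P-values were adjusted by Benjamini-Hochberg over 420 genes. edgeR 4.0.16, DESeq2 1.42.0, other scalings, a pseudocount of 8, background subtraction, no filter, a cartridge term, sample weights and left-out samples were alternatives. The fit was tested on simulated data. Samples within a group were compared in pairs for repeat counts of 1 sample. The lowest chi-square per degree of freedom was 2.68, for triple combination samples 2 and 4. Sample 2 had few counts, so this value does not exclude a repeat. Pairs across groups were not compared.

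The members and lists were chosen with earlier results of these data known. All 10 members were named, with up to 4 genes of each pathway list by smallest F test p, the 2 genes most like each member, and marker genes that define a cell type. Genes named to show a count, and Birc5, the 1 of its list that did not pass, were added after their values were seen. A pathway gene is not reported here.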

Additional observations from a re-analysis of the deposited data

Results flagged for a closer look

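Osm in entinostat plus anti-PD-1 sample 4 stood apart from its group. It read 184 normalized counts, and the nearest of the other 3 samples read 104, a gap that made up 0.909 of the range of the group. Chance marks about 1 in 20 groups of this size, and 50 groups (10 genes in 5 groups) were examined.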

How the results depend on the processing

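Il6, Il6ra, Il10ra and Cebpb in entinostat against vehicle kept their direction and their call in all 15 other settings. Of 1400 recomputed log2 fold changes of the 10 genes, 1115 kept their direction and side of the threshold, 138 lost the call, 25 gained it and 122 changed sign. They cover the treated groups against vehicle, and the anti-CTLA-4 group against the entinostat and anti-PD-1 groups. Most of the 1400 recompute results that were not called and had no call to lose, so the 138 are a larger share of the called ones. The cause of each change was not tested. The number of the 10 genes called for entinostat plus anti-PD-1 against vehicle was 4, and was 2 with no filter and 1 with edgeR at the deposited lane scaling. It was 0 with the cartridge term, in cartridge 1 alone, without vehicle samples V1 and V2 and with the replicate block. Over all genes, no filter gave 43 higher, that edgeR fit 30 higher and 3 lower, the cartridge term 3 higher and the rest 0. For entinostat plus anti-CTLA-4 against entinostat it was 8, and was 4 with centring, quantile normalization, the cartridge term and DESeq2, and 3 with TMM factors. Against the anti-PD-1 group it was 5, and was 3 with quantile normalization, 1 with edgeR at lane scaling, 8 with sample weights, and 0 with only those groups or the cartridge term. With sample weights the triple combination gave 5 calls against vehicle, 5 against entinostat and 6 against the anti-CTLA-4 group, and the interaction gave 8. The F test called 5, and was at 0 with the cartridge term, 8 with sample weights, and 3 without vehicle samples V1 and V2 and with either edgeR scaling. Over refits without 1 sample, the counts ran from 4 to 8 for entinostat and 0 to 6 for entinostat plus anti-PD-1 against vehicle. They ran from 5 to 8 for the anti-CTLA-4 group against entinostat and 1 to 7 against the anti-PD-1 group. They ran from 0 to 6 for the triple combination against the anti-CTLA-4 group, 0 to 6 for the interaction and 4 to 8 for the F test. The shares of all genes in these refits are not given. Same-numbered samples of vehicle, entinostat and the anti-PD-1 group did not pair: 3 of 12 correlations of their deviations exceeded 0.1 (range -0.54 to 0.53). With the replicate block, 4 genes were called in entinostat against vehicle and 0 between the anti-PD-1 group and entinostat. Of all genes tested, that block gave 103 higher and 4 lower in entinostat against vehicle. Depth limits Lif in triple combination sample 2 (2 barcode counts), and Il6 and Cebpd. Il6 and Cebpd lay above the pooled background limit in 16 and 14 of 22 samples. Against the highest negative control of the same sample, Il6 was above it in 21 of 22 samples and Cebpd in 22 of 22.

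The log2 fold changes that changed sign follow. For entinostat against vehicle, Lif turned to -0.25 (centring), -0.29 (quantile), -0.21 (TMM) and -0.28 (DESeq2). Stat3 turned to -0.21 (centring), -0.20 (quantile), -0.16 (TMM) and -0.23 (DESeq2). Myc turned to -0.18 (centring), -0.21 (quantile), -0.13 (TMM) and -0.22 (DESeq2). With anti-PD-1 added, against vehicle, Lif turned to 0.016 (leaving out vehicle 3 and triple combination a). Stat3 turned to -0.18 (centring), -0.36 (quantile), -0.21 (TMM) and -0.23 (DESeq2). Cebpd turned to -0.099 (quantile). Myc turned to -0.16 (centring), -0.24 (quantile), -0.0034 (sample weights), -0.21 (TMM) and -0.24 (DESeq2). Lif ran from -0.14 to 0.067 over refits without 1 sample. Myc ran from -0.0041 to 0.25 over refits without 1 sample. With anti-CTLA-4 added, against vehicle, Il6 turned to -0.19 (cartridge term), -0.25 (cartridge 2 alone) and -0.61 (sample weights). Il6ra turned to 0.070 (centring), 0.088 (quantile), 0.016 (leaving out vehicle 3 and triple combination a), 0.00061 (edgeR lane scaling), 0.11 (TMM) and 0.060 (DESeq2). Lif turned to 0.074 (centring), 0.054 (quantile), 0.13 (cartridge term), 0.066 (TMM) and 0.049 (DESeq2). Il10ra turned to 0.012 (TMM). Stat3 turned to 0.099 (centring), 0.071 (quantile), 0.10 (TMM) and 0.076 (DESeq2). Socs3 turned to 0.032 (centring), 0.076 (quantile), 0.017 (cartridge 2 alone), 0.0011 (leaving out vehicle 3 and triple combination a) and 0.020 (TMM). Cebpb turned to 0.15 (centring), 0.086 (quantile), 0.016 (cartridge 2 alone), 0.14 (TMM) and 0.10 (DESeq2). Myc turned to -0.0046 (sample weights). Il6 ran from -0.80 to 0.77 over refits without 1 sample. Il6ra ran from -0.55 to 0.12 over refits without 1 sample. Il10ra ran from -0.81 to 0.080 over refits without 1 sample. Socs3 ran from -0.59 to 0.084 over refits without 1 sample. Cebpb ran from -0.27 to 0.12 over refits without 1 sample. For the triple combination against vehicle, Stat3 turned to -0.19 (centring), -0.14 (quantile), -0.020 (without vehicle samples V1 and V2), -0.14 (TMM) and -0.19 (DESeq2). Cebpd turned to -0.19 (quantile) and -0.094 (DESeq2). Myc turned to -0.20 (centring), -0.28 (quantile), -0.046 (background subtraction), -0.075 (cartridge 2 alone), -0.016 (sample weights), -0.035 (leaving out vehicle 3 and triple combination a), -0.086 (TMM) and -0.14 (DESeq2). Lif ran from -0.67 to 0.083 over refits without 1 sample. Cebpd ran from -0.045 to 0.64 over refits without 1 sample. Myc ran from -0.15 to 0.25 over refits without 1 sample. For the anti-CTLA-4 group against entinostat, Lif turned to 0.32 (centring), 0.35 (quantile), 0.076 (cartridge term), 0.28 (TMM) and 0.33 (DESeq2). Stat3 turned to 0.31 (centring), 0.27 (quantile), 0.26 (TMM) and 0.31 (DESeq2). Myc turned to 0.59 (centring), 0.58 (quantile), 0.52 (TMM) and 0.57 (DESeq2). Myc ran from -0.26 to 0.00082 over refits without 1 sample. For the anti-CTLA-4 group against the anti-PD-1 group, Lif turned to 0.43 (centring), 0.49 (quantile), 0.066 (background subtraction), 0.41 (cartridge term), 0.027 (sample weights), 0.48 (TMM) and 0.48 (DESeq2). Stat3 turned to 0.28 (centring), 0.43 (quantile), 0.31 (TMM) and 0.30 (DESeq2). Myc turned to -0.015 (cartridge term) and -0.0012 (sample weights). Lif ran from -0.17 to 0.032 over refits without 1 sample. Myc ran from -0.047 to 0.21 over refits without 1 sample.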
